A study of Mus musculus with 15 samples.

Results

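The plasminogen activators and the serpins that surround them were followed in mouse pancreatic stellate cells and in pancreatic cancer cells. The genes were Plau, Plat, Plaur, Serpine2, Serpinb2 and Serpinf1, chosen by name, and every probe carrying one of these 6 symbols in the scanner files was used: 11 of the 56605 probes, or 6 of the 37008 gene names, on a 1-colour Agilent expression array. There were 5 groups of 3 arrays. Stellate cells (PSC) came from wild-type (WT) mice or from mice that the labels call heterozygous (HT) without naming the locus, and were kept in culture for 2 weeks until activated. The cancer cells, whose line is not named in the labels, received control medium, medium conditioned by WT PSC or medium conditioned by HT PSC for 24 h. Separate animals or cultures are not mentioned for the 3 replicates of a group, and the p-values therefore rest on a spread between samples that could be technical only.

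Plasminogen is a circulating zymogen that urokinase (Plau) and tissue-type plasminogen activator (Plat) cleave to plasmin, a protease that dissolves fibrin and opens the extracellular matrix. Urokinase is held at the cell surface by its receptor, Plaur, and both activators are inactivated by serpins, which trap their protease in a covalent complex. Activated pancreatic stellate cells are the main makers of the fibrous matrix in pancreatic cancer, and plasmin is one of the proteases that turn such a matrix over.

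The probes are oligonucleotides of 60 bases, and their positions are given on the mm9 build as the files give them. Sequences are shown for 4 probes: Plau probe 2, which crosses an intron and whose genotype difference did not pass, Plat probe 1, whose gene is lower in the stellate cells, and Serpinf1 probes 2 and 3, which gave the same direction between the cell types as probe 1. The second Plau probe lies at chr14:21659855-21660221 on the plus strand; its 60 bases cover 367 bases of the genome, so it crosses an intron. The first Plat probe lies at chr8:23892531-23892590 on the plus strand, and the capitals mark the first stop codon in the frame that starts at its first base. Serpinf1 probes 2 and 3 lie at chr11:75229163-75229222 and chr11:75224421-75224480 on the minus strand.
Plau probe 2: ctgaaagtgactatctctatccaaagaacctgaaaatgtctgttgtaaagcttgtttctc
Plat probe 1: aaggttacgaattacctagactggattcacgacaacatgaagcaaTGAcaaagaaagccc
Serpinf1 probe 2: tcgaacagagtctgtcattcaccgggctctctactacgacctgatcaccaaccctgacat
Serpinf1 probe 3: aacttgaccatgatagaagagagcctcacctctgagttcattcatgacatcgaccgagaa

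The other probes are given by position. The first Plau probe is at chr14:21662487-21662546, 2632 bases from the second. Plaur has a single probe at chr7:25260569-25260628, and Serpinb2 a single probe at chr1:109421496-109421555, both on the plus strand. The second Plat probe, designed on a cDNA clone, is at chr8:23886301-23886360, which is 6230 bases from the first. The first Serpine2 probe is at chr1:79790914-79790973 on the minus strand, and the second, designed on another transcript, is at chr1:79854083-79854142, a distance of 63169 bases. The first Serpinf1 probe is at chr11:75223568-75223627 on the minus strand. Probe 1 is in each case the brightest probe of its gene over the 15 arrays, and the values below are those of probe 1 unless another is named.

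Levels are log2 signals relative to the 75th percentile of the same array, so that a level of 0 is the signal of that percentile. They compare one probe across arrays and not one gene with another. That percentile lay between 913 and 1449 signal units, and 54.3 to 63.8% of the spots on an array were well above background. All 5 groups were present on both of the 2 slides. Markers of other cells differed between the PSC groups. The summed level of 16 macrophage markers was 15.7 to 29.9 times the 75th percentile in PSC WT and 72.6 to 184.7 times in PSC HT, and 13 of the 14 tested were higher in PSC HT. Mesothelial markers went the other way, with 7 of 8 lower in PSC HT, and so did endothelial markers, with 5 of 6 lower. The summed level of 13 activated stellate cell markers was 1262 to 1754 in PSC WT and 1513 to 1604 in PSC HT. The third PSC HT array carried the epithelial gene Cdh1 at -2.43, well above background, where the other 5 PSC arrays were not. In bulk RNA, a change in the share of a cell type and a change in RNA per cell cannot be told apart.

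Urokinase was the member that moved with genotype and with medium. Its level in PSC WT was 1.90, 2.00 and 2.26 in replicates 1 to 3, and in PSC HT 2.60, 2.59 and 2.63. All 3 PSC HT arrays were above all 3 PSC WT arrays, and the HT arrays lay within a far narrower range. The difference was 0.55 ± 0.11 (SE, n = 3 per group; limma adjusted p = 0.0307), or 1.47-fold. In this comparison 7.73% of 20886 genes passed the threshold of adjusted p under 0.05, 2.93% as higher and 4.79% as lower in PSC HT; among the 6 members, Plau alone passed. Groups that do not overlap were seen for 28.7% of genes and for 2 of the 6 members, Plau and Plaur.

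The call for Plau in PSC was close to the threshold. The adjusted p rose above it when any one array other than the third PSC WT array was left out (0.0664 to 0.116), and the difference then stayed between 0.47 and 0.56. Within slide 1 the difference was 0.71 and within slide 2 it was 0.46; slide 1 holds 1 PSC WT array and slide 2 holds 1 PSC HT array, so that these values describe the direction only. Macrophages are known to make urokinase, and the macrophage marker sums given above moved the same way between these groups. Mesothelial and endothelial markers moved the other way. In replicates 1 to 3 the macrophage sums were 29.94, 17 and 15.71 in PSC WT, and 184.7, 72.56 and 73.89 in PSC HT. Over the same replicates Plau rose in PSC WT and stayed within 2.59 to 2.63 in PSC HT. The part of these cell types in the result was not tested. The second Plau probe, which crosses an intron, gave 0.21 ± 0.12 (adjusted p = 0.37), with levels of -2.74 to -2.60 in PSC WT and -2.68 to -2.27 in PSC HT that overlapped.

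In the cancer cells the Plau level was -1.72, -1.75 and -1.88 with control medium. With WT PSC medium it was -1.39, -1.26 and -0.99, and with HT PSC medium -0.71, -1.19 and -0.89. Every array with either conditioned medium lay above every control array, while the arrays of the 2 conditioned media overlapped. With HT PSC medium the rise was 0.85 ± 0.14 (SE, n = 3 per group; limma adjusted p = 0.0127), or 1.80-fold, where 5.45% of 19687 genes passed in either direction, 2.93% as higher and 2.52% as lower. Groups did not overlap for 24.6% of genes and for 2 of the 5 members tested, Plau and Plaur. Plau was the only one of the 5 members tested that passed.

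With WT PSC medium the difference was 0.57 ± 0.14 and did not pass (limma adjusted p = 0.0538), and none of the 5 members tested did, against 5.92% of all genes, 2.71% as higher and 3.22% as lower. Groups did not overlap for 25.2% of genes and for 1 of the 5 members, Plau. The 2 differences share their control arrays. The direct difference between the media, HT minus WT, was 0.28 ± 0.14 with a 95% interval from -0.04 to 0.60 (adjusted p = 0.975), so that the passing of one and not the other is not a difference between the media. In that direct comparison limma called 0 of 19687 genes (0% of them) and none of the 5 members, with 983 genes at an unadjusted p under 0.05. Within slides the HT medium value was 1.00 on slide 1, from 2 arrays of each group, and 0.56 on slide 2, from 1 array of each. Without the third HT medium array it was 0.83 with an adjusted p of 0.0508. The second Plau probe was not well above background on any cancer cell array and could not show these changes.

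**Figure D1:**
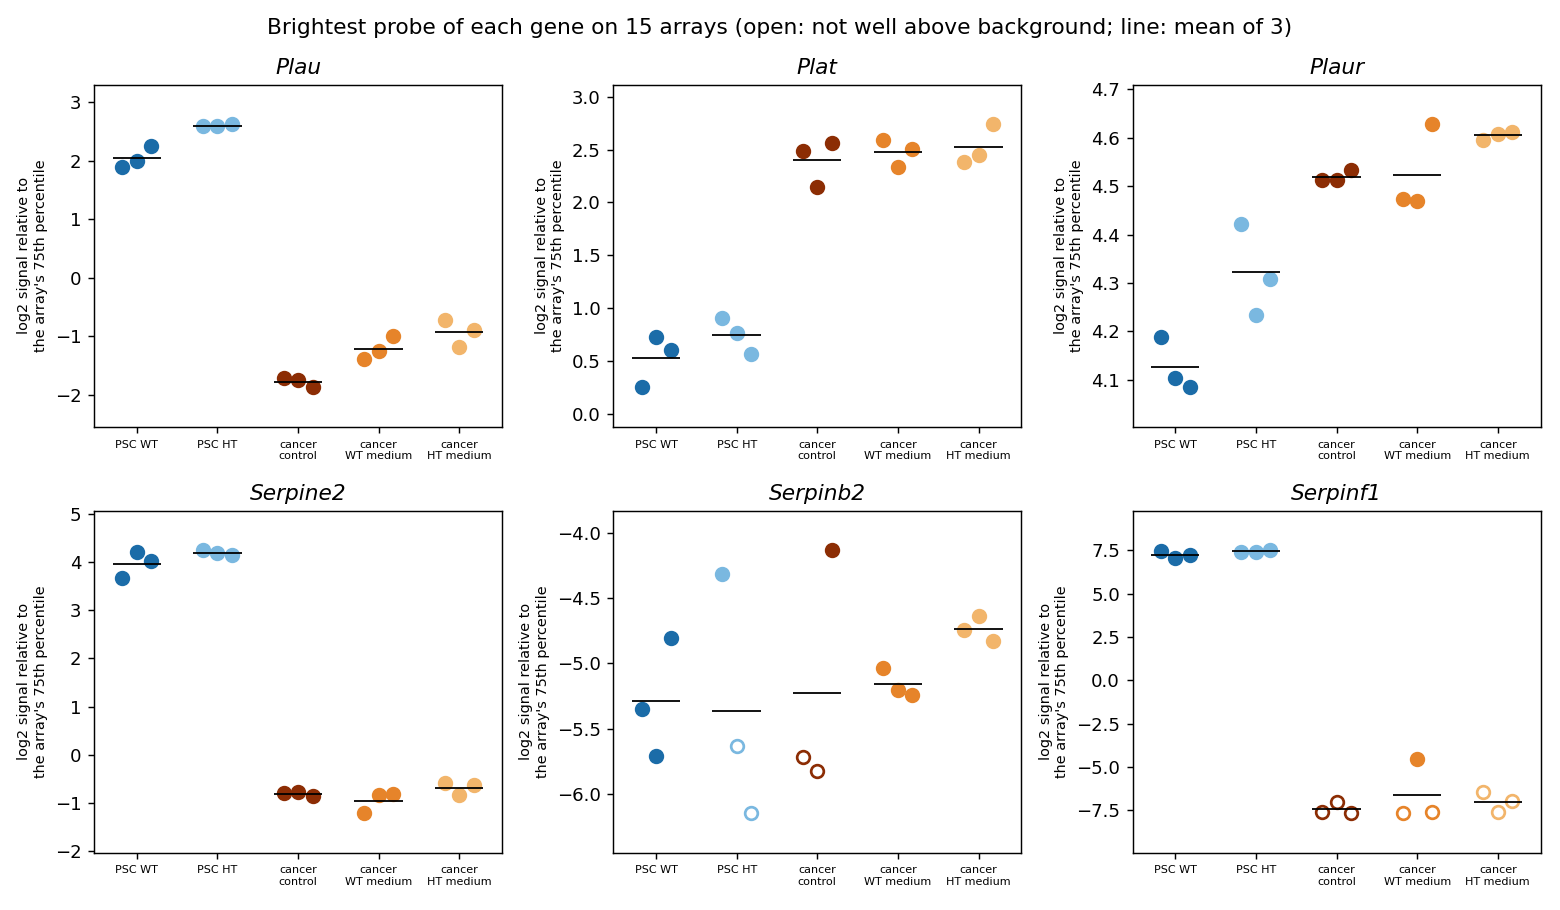
Log2 signal of the brightest probe of each of the 6 genes relative to the 75th percentile of the array (y axes, separate scales) in the 5 groups (x axes), with 1 point per array, open where the probe was not well above background, and a line at the mean of 3. Plau, Serpine2 and Serpinf1 are higher on all 6 PSC arrays than on all 9 cancer cell arrays, Plat and Plaur are lower, and the Serpinb2 groups overlap between the cell types.

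Tissue-type activator had the opposite distribution between the cell types. The Plat level was 0.25, 0.73 and 0.60 in PSC WT and 0.91, 0.76 and 0.57 in PSC HT, against 2.49, 2.15 and 2.56 in control cancer cells. All 6 PSC arrays, at 0.25 to 0.91, lay below all 9 cancer cell arrays, at 2.15 to 2.74. PSC WT were lower than control cancer cells by a difference of -1.87 ± 0.17 (SE, n = 3 per group; limma adjusted p = 6.93e-05), 3.66-fold. Urokinase, on its own probe, was 14.3-fold higher in PSC WT than in control cancer cells, a difference of 3.84 ± 0.12 (adjusted p = 3.81e-07).

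The cell types differ in most genes: 71.3% of 21928 passed between PSC WT and control cancer cells, 36.0% as higher and 35.3% as lower in PSC, and 75.5% did not overlap, as did 5 of the 6 members. Of the 6 members 5 passed, 3 higher (Plau, Serpine2, Serpinf1) and 2 lower (Plat, Plaur), so that passing by itself sets no member apart. Scaling to the median of each array moved the median of all genes in this comparison by -0.39, and the calls then split into 5312 higher and 10492 lower in place of 7893 and 7747. Relative to the median of all genes, that scaling gave 3.80 for Plau, -1.91 for Plat and -0.43 for Plaur.

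Neither genotype nor medium moved Plat past the threshold. With WT PSC medium it stood at 2.59, 2.34 and 2.51 and with HT PSC medium at 2.38, 2.44 and 2.74, all within or near the range of the controls. The differences from control had 95% intervals from -0.24 to 0.39 and from -0.19 to 0.43, so that changes of the size measured for Plau with HT medium lie outside them. The interval for PSC HT minus PSC WT ran from -0.14 to 0.58. The second Plat probe, on the clone, showed the same order of cell types: it was not well above background on any PSC array and was well above it on all 9 cancer cell arrays, with group means of -4.03, -3.95 and -3.86.

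The urokinase receptor was measured at nearly one level throughout. The Plaur level was 4.19, 4.10 and 4.08 in PSC WT and 4.42, 4.23 and 4.31 in PSC HT. The PSC HT arrays lay above the PSC WT arrays, but the difference of 0.20 ± 0.08 did not pass (limma adjusted p = 0.224). In control cancer cells Plaur was 4.51, 4.51 and 4.53, with WT medium 4.47, 4.47 and 4.63, and with HT medium 4.60, 4.61 and 4.61. The HT medium arrays all exceeded the controls by a small amount, 0.09 ± 0.06 (adjusted p = 0.507), and the WT medium arrays overlapped both. PSC WT were lower than control cancer cells, -0.39 ± 0.08 (SE, n = 3 per group; adjusted p = 0.00376) and on slide 1, with 1 PSC WT array, the difference was -0.33.

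**Figure D2:**
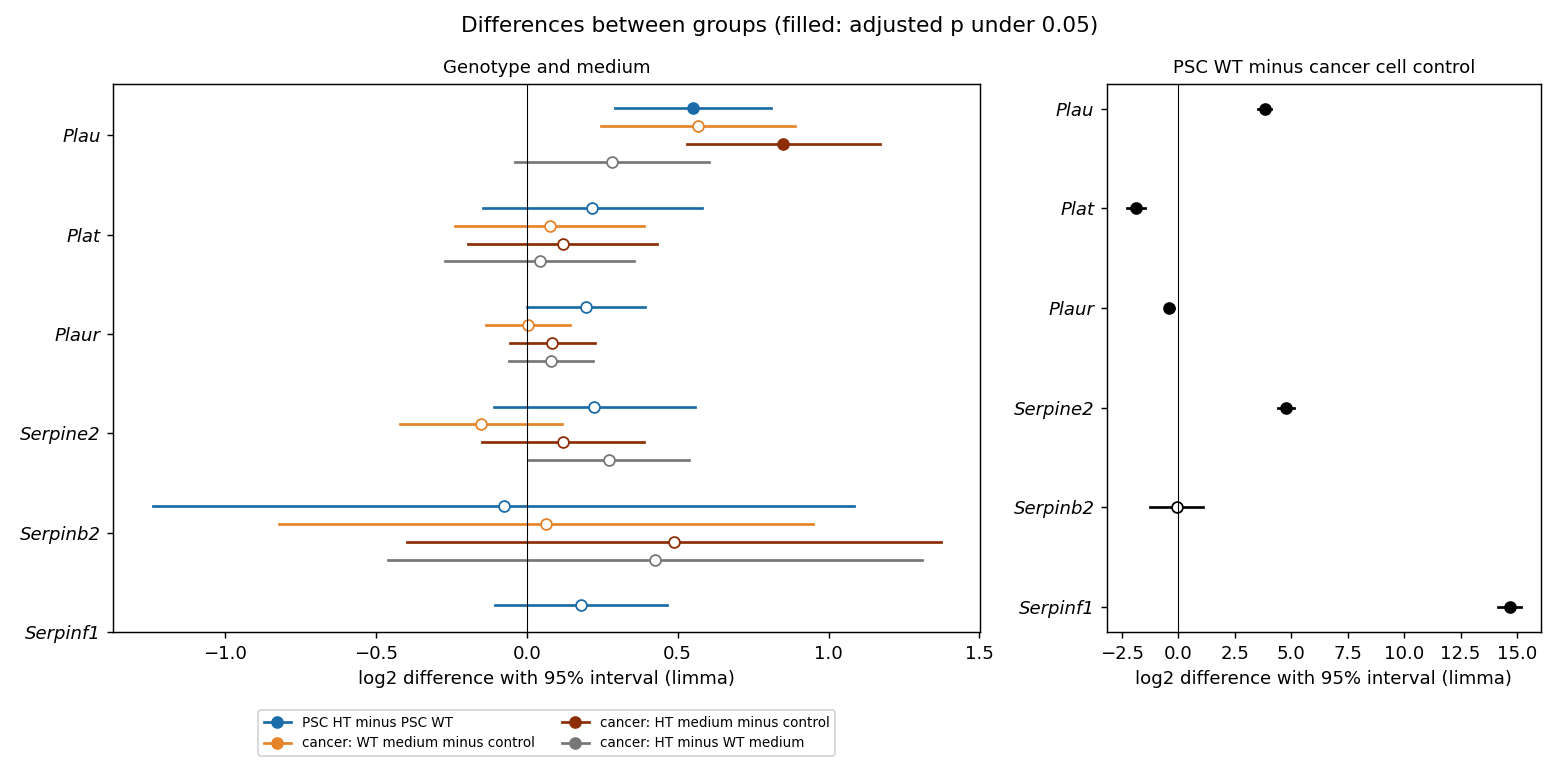
Log2 differences between groups with their 95% intervals from limma (x axes) for the 6 genes (y axes), filled where the adjusted p is under 0.05; genotype and medium are on the left, PSC WT minus control cancer cells on the right, on a wider scale. On the left Plau alone has filled points, at 0.55 for PSC HT minus PSC WT and 0.85 for HT medium minus control; Serpinf1 was not tested in the cancer cells.

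Among the serpins, Serpine2 (protease nexin 1) inhibits thrombin, urokinase and tissue-type activator. Its level was 3.67, 4.19 and 4.02 in PSC WT and 4.24, 4.19 and 4.14 in PSC HT. In control cancer cells it was -0.79, -0.76 and -0.86, with WT medium -1.21, -0.84 and -0.81, and with HT medium -0.58, -0.84 and -0.63. The cell types were far apart, and within each cell type the groups overlapped. PSC WT exceeded control cancer cells by 4.77 ± 0.14 (SE, n = 3 per group; limma adjusted p = 3.22e-07), 27.2-fold.

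The genotype difference in Serpine2 was 0.22, with an interval from -0.11 to 0.56. The media differed by 0.27, HT minus WT, with an interval from 0.00 to 0.54 and an adjusted p of 0.975. The second Serpine2 probe was well above background on all 6 PSC arrays, with group means of -4.06 and -3.52, and on no cancer cell array. Both Serpine2 probes thus placed the gene higher in the stellate cells.

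Serpinf1 encodes PEDF, a secreted serpin that does not inhibit proteases and is known as an inhibitor of vessel growth. Its level was 7.48, 7.07 and 7.22 in PSC WT and 7.40, 7.40 and 7.51 in PSC HT. On the control cancer cell arrays the probe read -7.61, -6.98 and -7.65, not well above background on any. PSC WT were at least 7096-fold higher than control cancer cells. This bound sets the dim probe at the lowest signal counted as well above background on its array, or at its own value if higher. The bound itself was not tested. The fitted difference of 14.67 (limma adjusted p = 1.68e-08) uses the control readings as they are.

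All 3 Serpinf1 probes behaved alike between the cell types. Each was well above background on all 6 PSC arrays and on none of the control arrays, and the fitted differences, which depend on readings below background, were 14.67, 12.30 and 13.68. Between the genotypes the probes gave 0.18, 0.26 and 0.29, each higher in PSC HT and none past the threshold (adjusted p = 0.446, 0.137 and 0.102 over 31926 probes). A pair of readings on single arrays stood out in the cancer cells. Probe 1 reached -4.54 on the second WT medium array. The fibrillar collagen gene Col1a1 was also highest of the 9 arrays there, at -2.84 against -4.71 to -3.96 on the others. The endothelial gene Pecam1 was at -2.89, but the endothelial gene Cdh5, at -7.94, was not well above background. The summed levels of endothelial and activated stellate cell markers there, 16.04 and 93.23, lay within the control ranges of 14.25 to 16.05 and 89.63 to 94.32. These sums are set mostly by genes of the cancer cells themselves, Egfl7 at 3.92 and Vim at 6.22 on average in controls. They could not show a small rise in the other markers. Of the 13 stellate cell markers, 7 were well above background there, against 4 to 6 on control arrays. Probe 2 reached -3.76 on 1 HT medium array. No other probe of Serpinf1 was well above background on either array. On the second WT medium array probe 3 still read highest of the 9, -5.89 against -7.81 to -7.21 on the others, while probe 2 read -7.88. Serpinf1 was not tested within the cancer cells.

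**Figure D3:**
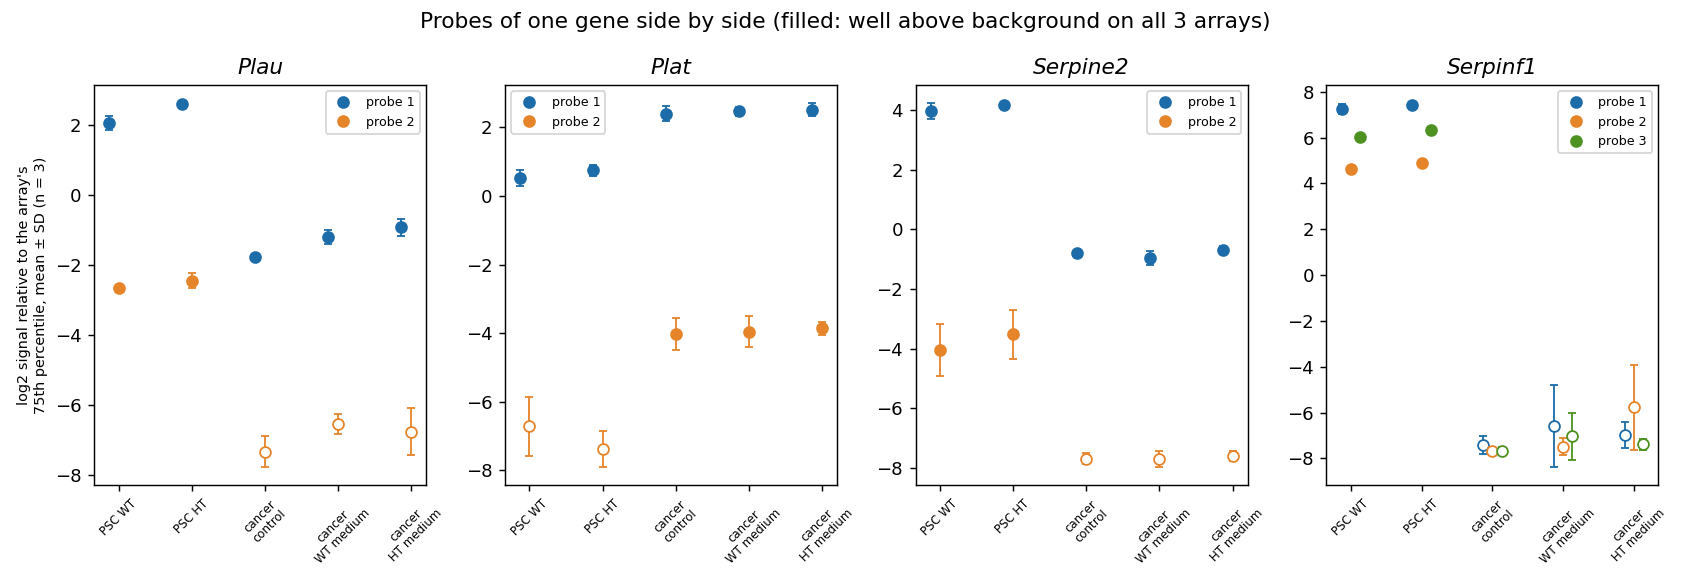
Mean ± SD of 3 arrays of the log2 signal relative to the 75th percentile of the array (y axes) for each probe of the 4 genes with more than 1 probe, in the 5 groups (x axes), filled where all 3 arrays were well above background. Probes of one gene differ in brightness but place the cell types in the same order: Plau, Serpine2 and Serpinf1 are higher in PSC and Plat is higher in cancer cells.

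Serpinb2 encodes plasminogen activator inhibitor 2, an inhibitor of urokinase that stays largely inside the cell. It was dim everywhere, between -6.15 and -4.13. It was well above background on 3 PSC WT arrays, 1 PSC HT array, 1 control array and all 6 arrays with conditioned medium. The control arrays read -5.72, -5.83 and -4.13, the WT medium arrays -5.04, -5.21 and -5.24, and the HT medium arrays -4.74, -4.64 and -4.83.

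The third control array was thus the highest of all 9, and the conditioned medium arrays lay between it and the remaining controls. With all arrays the difference for HT medium was 0.49 ± 0.39 (limma adjusted p = 0.558) and for WT medium 0.06 ± 0.39 (adjusted p = 0.945). Without the third control array the values were 1.03 (adjusted p = 0.00314) and 0.61 (adjusted p = 0.0157), so that 1 array decides whether Serpinb2 passes in either medium. The remaining controls, at -5.72 and -5.83, were not well above background. These differences are thus measured from readings near background. The HT and WT medium arrays did not overlap, as for 11.7% of genes in that comparison, and their difference of 0.42 did not pass (adjusted p = 0.987).

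The order of the groups was therefore gene by gene. For Plau it ran PSC HT, PSC WT, HT medium, WT medium and control, with the 2 media overlapping and all other neighbours apart. For Plaur and Plat the HT medium group was highest and PSC WT lowest; the 3 cancer cell groups overlapped with their neighbours in that order for both genes, and the PSC groups overlapped for Plat but not for Plaur. Serpine2 and Serpinf1 fell into 2 blocks, the PSC groups and the cancer cell groups, with overlap between neighbours inside each.

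The genes whose pattern over the 15 arrays was most like that of each member were found among 14856 genes by the root-mean-square (RMS) difference after each gene's own mean was subtracted. For Plau they were Adgra2 (RMS difference 0.23 on the log2 scale) and Metrnl (0.24), and for Serpine2 Qpct (0.17) and Trim12a (0.20). For Serpinf1 they were Adamts2 (0.47) and Lox (0.48), the latter an enzyme that crosslinks collagen. Plat was nearest to Pdss2 (0.11) and Mis18a (0.12), and Plaur to Bccip (0.06) and Emc4 (0.06), although Plaur itself varied by an SD of only 0.19 over the arrays. Serpinb2 had no close match, its nearest being Ttc30a2 (0.45) and Bbip1 (0.45) against an SD of 0.58.

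Around these members, a list of 38 genes of the plasminogen system was read in the same fits. In PSC HT minus PSC WT, 26 were tested, 2 rose and 2 fell, where 2.93% of all genes rose and 4.79% fell, with a median difference of 0.06 against -0.00 for all genes. Those that rose were F3, tissue factor, the cell surface starter of coagulation (0.66 ± 0.12; limma adjusted p = 0.022), and Pdgfd, a growth factor that urokinase can activate (0.74 ± 0.11; adjusted p = 0.0119). Those that fell were Itgb3, an integrin subunit that pairs to bind vitronectin (-0.64; adjusted p = 0.0235), and Procr, the endothelial protein C receptor (-0.55; adjusted p = 0.0166). Of 20 alternatives, the call of F3 held under 11, that of Pdgfd under 15, that of Itgb3 under 10 and that of Procr under 14. The 4 tested binders of plasminogen at the cell surface, Anxa2, S100a10, Plgrkt and Eno1, did not pass, with differences of 0.00, -0.24, 0.08 and 0.11.

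In the cancer cells 23 genes of the list were tested. With HT medium 6 rose and 1 fell, where 2.93% of all genes rose and 2.52% fell (median 0.11 against 0.01 for all genes). With WT medium 3 rose and 1 fell, where 2.71% of all genes rose and 3.22% fell (median 0.10 against 0.02). Both comparisons use the same controls. Of the 5 tested genes of coagulation, its regulators and its receptors, 4 rose with HT medium and 2 with WT medium. Their medians were near equal, 0.54 and 0.48, where 2.93% and 2.71% of all genes rose. The 4 were F3, the anticoagulant receptor Thbd, and the receptors F2r and F2rl1, and the 2 were F2r and F2rl1. Only F3 among them is a starter of coagulation. The thrombin receptor F2r rose by 0.49 and 0.48 with HT and WT medium, and F2rl1, a related receptor that trypsin-like proteases activate, by 0.57 and 0.60 (adjusted p from 0.00161 to 0.00988 over the 4 values). Pdgfd also passed with WT medium, at 0.43 (adjusted p = 0.0399), but under only 6 of 23 alternatives.

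Tissue factor (F3) read 2.96, 2.93 and 3.14 in controls, 3.28, 3.28 and 3.44 with WT medium, and 3.40, 3.65 and 3.59 with HT medium. The 6 treated arrays lay above the 3 controls, but only the HT medium difference passed, 0.54 ± 0.09 (adjusted p = 0.0145), against 0.32 ± 0.09 with WT medium (adjusted p = 0.0857). Thbd, thrombomodulin, a thrombin-binding anticoagulant receptor, followed at 0.77 (adjusted p = 0.027) and 0.61 (adjusted p = 0.0617), and the collagenase Mmp13, whose zymogen plasmin can cleave, at 0.97 (adjusted p = 0.00606) and 0.44 (adjusted p = 0.113). With HT medium the call of F3 held under 15 of 23 alternatives, that of Thbd under 14 and that of Mmp13 under 21. For none of these 3 genes did HT and WT medium differ past the threshold (adjusted p from 0.841 to 0.988).

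The gene of the list that fell was Lrp1, the endocytic receptor that clears complexes of the activators with their serpins. It read 0.56, 0.22 and 0.36 in controls, -0.34, -0.40 and -0.63 with WT medium, and -0.40, -0.44 and -0.39 with HT medium. All treated arrays lay below all controls, and the 2 media overlapped. The differences were -0.84 ± 0.10 with WT medium (limma adjusted p = 0.00296) and -0.79 ± 0.10 with HT medium (adjusted p = 0.00462). In the PSC, Lrp1 was 3.91 in WT and 3.90 in HT on average, higher than in control cancer cells by 3.53.

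**Figure D4:**
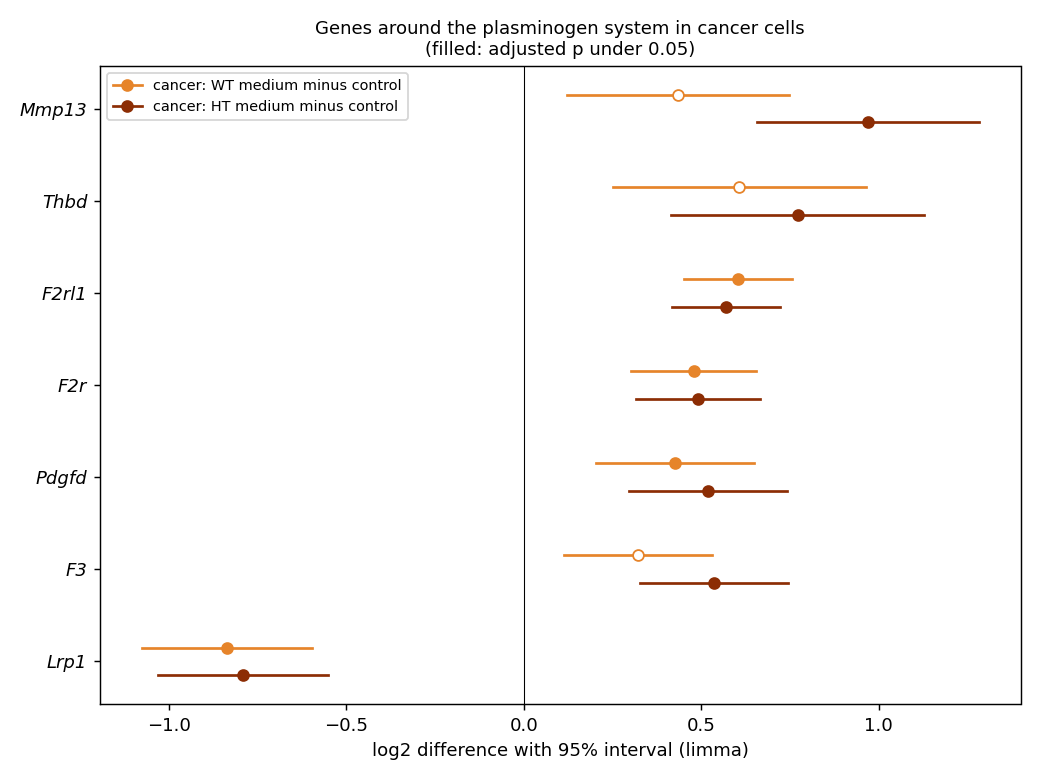
Log2 differences from control medium with 95% intervals from limma (x axis) in cancer cells given WT or HT PSC medium, for the named genes of the plasminogen system list (y axis), filled where the adjusted p is under 0.05. F2r and F2rl1 rise and Lrp1 falls with both media, and Pdgfd passes with both, with WT medium under only 6 of 23 alternatives; both sets of differences share the same 3 control arrays.

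The array holds 61 other serpins. In PSC HT minus PSC WT, 26 were tested, 1 rose and 5 fell, where 2.93% of all genes rose and 4.79% fell (median -0.07 against -0.00 for all genes). Serping1, the C1 inhibitor of complement, rose by 1.36 ± 0.12 (limma adjusted p = 0.00193). Serpina3n (-1.91), Serpind1, the thrombin inhibitor heparin cofactor II (-1.72), Serpini1, neuroserpin, an inhibitor of tissue-type activator (-1.65), and Serpinb6b (-1.10) fell, with adjusted p from 0.000851 to 0.00897. The shifts in macrophage, mesothelial and endothelial markers given above lie between the same groups, and their part in these differences was not tested.

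Of the 24 other serpins tested in cancer cells, 3 fell with WT medium and 2 with HT medium, where 3.22% and 2.52% of all genes fell. Serpinf2, the plasmin inhibitor alpha-2-antiplasmin, fell by 1.15 with WT medium (limma adjusted p = 0.00294) and by 1.00 with HT medium (adjusted p = 0.00675). Serpinb1a (-0.52) and Serpinb1c (-0.68), inhibitors of neutrophil proteases or close relatives of one, passed with WT medium, and Serpini1 (-0.42) with HT medium. Of 23 alternatives, these calls held under 15 for Serpinb1a, 8 for Serpinb1c and 7 for Serpini1. Serpinb1a and Serpinb1c, like the Serpina1, Serpina3 and Serpinb6 genes, belong to families of near-identical copies, and a probe may read more than one of them.

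Between the cell types, 29 other serpins were tested, 9 higher and 9 lower in PSC WT, and 28 genes of the plasminogen list, 18 higher and 6 lower. Tfpi, the inhibitor of the tissue factor pathway, was at least 643-fold higher in PSC WT, Mrc2, a collagen receptor that associates with Plaur, at least 101-fold, and the growth factor Hgf at least 25.8-fold. Of the genes lower in PSC WT, F2rl1 was at least 46.1-fold lower and Serpinb5 (maspin), an epithelial serpin, at least 113-fold lower. Of the 9 tested partners of the activators and their receptor, 8 were higher in PSC WT and none lower. Of all genes, 71.3% passed here, 36.0% as higher and 35.3% as lower in PSC WT. The median difference was 0.61 for the plasminogen list and -0.185 for the other serpins, against 0.03 for all genes. The plasminogen list thus leaned towards PSC WT, and the other serpins were split evenly. Whether either list stands apart from other genes was not tested.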

How the data were processed

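Total RNA of 15 samples was hybridised to 1-colour Agilent arrays after Cy3 labelling of double-stranded cDNA, per the labels' protocols. The deposited scanner intensity is the background-subtracted processed signal that the authors' scanner software (Feature Extraction 10.7.3.1) wrote, per the file headers. The series' deposited log2 values served as an alternative only, within a cell type. Spots of one probe were averaged, log2 signals were centred on each array's 75th percentile, and the brightest probe stood for a gene. A gene was tested where at least 1 group of the fit had its probe well above background on each array, with limma 3.58.1 in R 4.3.3 (lmFit, eBayes; Benjamini-Hochberg over all genes tested; threshold 0.05): the 6 PSC arrays, the 9 cancer cell arrays, and PSC WT with control. The number of arrays limits the precision. The fit was tested on simulated data of independent normal values, which held no slide, replicate or cell mixture effects. Members and lists were chosen with earlier results of these data known. From each list up to 4 genes per comparison and direction were named, by size of change, if they passed and no array of one group crossed into the other, and 2 most like genes per member; Anxa2, S100a10, Plgrkt and Eno1 were added after their values were seen, as were values of named genes in other comparisons. A gene that the rule names is not reported here.

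Same-numbered arrays of control and WT medium deviated together weakly (r = 0.21, 0.26 and 0.23), each over the limit of 0.1 used as the rule for pairing. For the other pairs of groups not every r was over 0.1, although replicate 2 of control and HT medium reached 0.39. The labels give only replicate numbers, and the main fits had no pairing term. The alternatives were background correction, scaling, filter, probe, slide, replicate block, fit, threshold, and leaving out each array.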

Additional observations from a re-analysis of the deposited data

How the results depend on the processing

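Between the cell types, the differences of Plau, Plat, Serpine2 and Serpinf1 kept their direction and their side of the threshold under every alternative run, and Plaur did so except within slide 1 (-0.33; adjusted p = 0.182). The Plau rise in PSC HT was 0.55 without a filter on dim probes (adjusted p = 0.147), with a replicate block (adjusted p = 0.0602) and at a threshold of 0.01, 0.38 as the mean of both probes, 0.21 on probe 2, 0.71 and 0.46 within slides 1 and 2, and 0.47 to 0.66 without 1 array; none passed except without the third PSC WT array. With HT medium, Plau was 0.85 without the filter (adjusted p = 0.0574) and at a threshold of 0.01, 0.71 as the mean of probes, and 1.00 and 0.56 within slides, none past the threshold, and 0.74 to 0.98 without 1 array. With WT medium, Plau passed with normexp (0.51), quantile scaling (0.57), a stricter filter, all 15 arrays in 1 fit or trend and robust variance (0.57 each) and the deposited series values (0.53), and it was 0.46 to 0.66 without 1 array, passing without the second HT medium array (adjusted p = 0.0336). The replicate block changed no other call of a member.

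Several small differences changed sign under an alternative. Of these, only Serpinb2 with WT medium passed under any setting, without the third control array. In PSC HT minus PSC WT, Plat was -0.22 as the mean of probes, Serpinf1 -0.026 within slide 1, and Serpinb2 0.084 with normexp, 0.12 within slide 1, 0.032 in the deposited series values and -0.60 to 0.32 without 1 array. In PSC WT minus control, Serpinb2 was 0.057 with normexp, 0.070 with the slide block, 0.57 within slide 2 and -0.36 to 0.48 without 1 array. In HT minus WT medium, Plat was -0.030 with the slide block, -0.029 within slide 1 and -0.066 to 0.11 without 1 array, and within slide 2 Plau was -0.068 and Serpine2 -0.012. With HT medium, Serpine2 was -0.077 within slide 2 and Plat -0.0067 to 0.20 without 1 array. With WT medium, Plaur was -0.0026 with normexp, -0.058 with quantile scaling, -0.0032 with the slide block, -0.049 within slide 1, -0.026 in the deposited series values and -0.047 to 0.031 without 1 array; Plat was -0.049 to 0.16 without 1 array. Serpinb2 with WT medium was -0.036 with normexp, -0.11 within slide 1, -0.023 in the deposited series values and -0.24 to 0.61 without 1 array. With HT medium Serpinb2 kept its sign under all 21 alternatives and was 0.19 to 1.03 without 1 array. In each medium it passed only without the third control array. The cause was not tested. A slide holds 1 or 2 arrays of a group, a lone one assumed to vary like the others, so that a call lost within a slide says nothing of its stability.

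Counts over all genes moved most. PSC HT minus PSC WT gave 394 without the filter, 0 and 418 within slides 1 and 2, 2439 with all 15 arrays, 521 at 0.01 and 558 to 1281 without 1 array. HT medium gave 538 with median scaling, 333 without the filter, 674 as means of probes, 0 within either slide, 331 at 0.01 and 488 to 872 without 1 array. WT medium gave 638 with median scaling, 467 without the filter, 165 and 64 within slides, 470 at 0.01 and 581 to 1093 without 1 array. HT minus WT medium gave 1 with normexp, median scaling, all 15 arrays or trend and robust variance, 113 within slide 1, which holds 1 WT medium array, and 0 to 4 without 1 array. Of 840 values of the named list genes under alternatives, 704 stayed on their side of the threshold, the others no longer passed, and none changed direction. Readings near background limit Serpinb2 in all groups and Serpinf1 in cancer cells.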
